A study of Mus musculus with 6 samples.

Results

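The 10 genes described here encode the core of MHC class I antigen presentation in the mouse. They are the heavy chains H2-K1, H2-D1, H2-Q4, H2-T22 and H2-T23, the light chain B2m, the transporter subunits Tap1 and Tap2, the loading factor Tapbp and the peptidase Erap1. They were chosen by gene symbol from a list made for this purpose, and all 10 were found among the 21936 genes in each deposited table. RNA was sequenced from sorted macrophages in 6 libraries, 3 labelled WT and 3 labelled CKO. Both groups are labelled as ApoE-null (APOE-/-) mice with loxP-flanked Alkbh5 (ALKBH5flox/flox) that ate a high-fat diet for 4 months. The animals of the CKO group are labelled as also carrying Lyz2-Cre, a recombinase expressed from a gene active across the myeloid lineage. Alkbh5 encodes a demethylase of N6-methyladenosine in RNA, and the series asked what its loss does in these cells. The labels give neither strain, age nor tissue of origin. They also leave unsaid whether each library stands for its own animal, so the p-values cover the spread over these libraries alone, and part of that spread may be technical.

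A class I molecule is a heavy chain paired with beta-2 microglobulin, the product of B2m, around a short peptide. Proteasomes cut cytosolic proteins into peptides, the TAP1 and TAP2 transporter carries these into the endoplasmic reticulum, ERAP1 trims them, and tapasin, the product of Tapbp, holds empty class I molecules at the transporter until a peptide fits. H2-K1 and H2-D1 encode classical heavy chains that show peptides to cytotoxic T cells, while H2-Q4, H2-T22 and H2-T23 belong to the less variable non-classical heavy chains. Interferons raise the transcription of many of these genes through factors such as IRF1 and the class I transactivator NLRC5, and macrophages are among the cells in which this response is well known.

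Library depth was even, at 15422154 to 18418903 reads assigned to genes per library, where FPKM is a read count scaled to gene length and library size. In a gene of 1 kb, 3 reads amount to 0.163 to 0.195 FPKM. The check of the labels did not hold. The targeted gene itself, Alkbh5, gave 9.15, 8.61 and 8.50 FPKM in the libraries labelled CKO, above the 3.77, 3.95 and 3.88 FPKM of those labelled WT. Apoe, labelled null in both groups, read 1635 ± 29.3 FPKM (SD, n = 3) in the libraries labelled WT and 89.6, 97.3 and 98.1 FPKM in those labelled CKO. Whole-gene values cannot show whether either transcript was intact, and every direction below refers to the libraries as labelled. All 10 macrophage markers were tested, of which 5 rose and 4 fell. Over all tested genes 30.5% were called higher and 50.5% lower (limma adjusted p under 0.05). The counts of markers given here stand beside those shares. Of those that rose, Adgre1 was at 222 ± 2.98 FPKM in the libraries labelled WT and 778 ± 19.5 FPKM in those labelled CKO. Cd14 was at 189 ± 5.21 and 693 ± 14.7 FPKM, and Fcgr1 at 28.8 ± 2.42 and 235 ± 5.77 FPKM. Itgam and Csf1r also rose. Of those that fell, Mrc1 was at 29.7 ± 0.853 and 1.89 ± 0.118 FPKM, and Mertk at 18.4 ± 0.433 and 8.18 ± 0.615 FPKM. The summed FPKM of the 10 was 16518 to 18436 in the libraries labelled WT and 9355 to 9780 in those labelled CKO. Most of that sum was Lyz2, at 15116 ± 992 and 6556 ± 211 FPKM. Of 8 tested neutrophil markers 7 fell and 1 rose, with all 10 on the list summing to 619 to 907 FPKM against 86.1 to 98.2 FPKM. Retnlg and Ly6g were at 0 in every library labelled CKO, and Ly6g was at 0 in 2 of those labelled WT. Dendritic cell markers summed to 1.90 to 2.34 FPKM against 20.4 to 23.9 FPKM, nearly all of the latter from Ccr7, the 1 marker of 7 that was tested. The others stayed below 1 FPKM and were mixed. Flt3, Zbtb46 and Xcr1 had higher means in the libraries labelled CKO. Clec9a, Siglech and Cd209a had lower ones, with Cd209a at 0 in the 3 libraries labelled CKO. T and NK cell markers (1 tested, Cd4, which fell) summed to 5.02 to 5.27 FPKM against 1.08 to 1.20 FPKM, and B and plasma cell markers (2 tested, both fell) to 3.97 to 5.97 FPKM against 1.63 to 2.31 FPKM. Endothelial markers (3 tested, 1 rose and 2 fell) summed to 26.4 to 27.1 FPKM against 7.77 to 8.99 FPKM. Fibroblast and smooth muscle markers (1 tested, which rose) summed to 1.41 to 2.27 FPKM against 3.56 to 3.69 FPKM. Most of that sum was the tested gene, Acta2, at 0.989 ± 0.324 and 2.82 ± 0.165 FPKM. The others stayed below 1 FPKM. Of these Dcn had the higher mean in the libraries labelled CKO (0.0607 and 0.574 FPKM). The rest, such as Col1a1 (0.390 and 0.156 FPKM), had the lower mean there. The part of these other cell types in the class I values was not tested.

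Promoter stretches are shown first so that the values of genes with like and unlike promoters can be set beside them. RefSeq promoters (GRCm38.p6, 250 bases before to 50 bases after the start site) were at hand for 9 of the 10 genes, all but Tap2, and each was searched on both strands for 4 motifs. A kappa B-like motif, GGGNNTTCC, lay in the promoters of H2-K1, H2-D1 and H2-Q4, and in 5.82% of all 32851 promoters. In the following stretches, each given 5′ to 3′ on the gene's own strand, capitals mark that motif.

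H2-K1 (chr17:34000409-34000468, minus strand): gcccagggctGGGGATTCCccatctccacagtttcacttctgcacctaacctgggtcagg

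H2-D1 (chr17:35262923-35262952, plus strand): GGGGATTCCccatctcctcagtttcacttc

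H2-Q4 (chr17:35379434-35379493, plus strand): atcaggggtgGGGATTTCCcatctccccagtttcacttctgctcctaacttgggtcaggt

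The motif began 125, 171 and 173 bases before the RefSeq start site of H2-K1, H2-D1 and H2-Q4, taking for H2-K1 the farther of its 2 listed start sites (111 bases from the other). H2-K1 and H2-D1 were nearly alike from the motif onwards, with 58 of 60 bases the same. Within the first 30 of these bases the only substitution was A18T, counted from the first base of the motif with the base of H2-K1 given first. The interferon-stimulated response element core, which is GAAA, any NN and GAAA again, lay in the promoters of H2-T22, H2-T23, B2m and Erap1, and in 3.44% of all promoters. Capitals mark it here as it reads on the gene's strand, which for H2-T22, H2-T23 and Erap1 is the reverse complement, TTTC, any NN and TTTC.

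H2-T22 (chr17:36042899-36042958, minus strand): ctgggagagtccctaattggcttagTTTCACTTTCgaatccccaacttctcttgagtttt

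H2-T23 (chr17:36032806-36032835, minus strand): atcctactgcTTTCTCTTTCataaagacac

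B2m (chr2:122147523-122147582, plus strand): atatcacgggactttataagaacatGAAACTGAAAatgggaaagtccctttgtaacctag

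Erap1 (chr13:74639839-74639868, plus strand): ccaccttcacTTTCACTTTCggtcccgggc

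These matches began 191, 124, 139 and 4 bases before the RefSeq start sites, in the order shown. Those of H2-T23 and Erap1, like the kappa B-like match of H2-D1, lie within an annotated transcript of their gene (GENCODE M21). No promoter of the 9 genes held TTCNNNGAA, the gamma-activated site, which 8.30% of all promoters did. CCAAT, the Y box core bound by NF-Y, lay in 8 of the 9, all but that of Erap1, and in 37.4% of all promoters. None of these 9 promoters matched both the kappa B-like motif and the response element under the strict letters searched. Near matches were not counted. Letters close to the response element stand in the stretches of H2-K1, H2-D1 and H2-Q4 (tttcacttc). Letters close to the kappa B-like motif stand in that of B2m (gggaaagtccc). A match describes the letters in these windows and is not a bound site.

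All 10 class I presentation genes rose in the libraries labelled CKO, although H2-D1 did so by little and fell by 0.10 on the log2 scale after quantile normalization (SE 0.012, limma adjusted p = 2.21e-05). Over all 9953 genes tested, 30.5% were called higher and 50.5% lower (limma, Benjamini-Hochberg adjusted p under 0.05), together 81.1%, so 10 of 10 in the higher direction stood beside a background that leaned the other way. That lean depended on scaling, with 3038 genes higher and 5031 lower as deposited, and 4058 higher and 3874 lower after median-of-ratios scaling. The median log2 fold change, labelled CKO minus labelled WT on the log2(FPKM + 1) scale, was 1.43 over the 10 genes and -0.14 over all tested genes. Median-of-ratios scaling moved the fold changes of all genes upwards by a median of 0.16, and quantile normalization by 0.10. Quantile normalization did not move every gene alike, and H2-D1 went down from 0.13 to -0.10. No library labelled WT overlapped with a library labelled CKO in any of the 10 genes, where 31.2% of tested genes were separated in this direction and 51.3% in the other. A log2 fold change of at least 1 was reached by 7 of the 10, against 8.35% of tested genes called higher at that size. Over the alternatives run, H2-T23 ranged from 0.91 to 1.24 and B2m from 0.73 to 1.05, so that count depends on the setting. In these bulk libraries more cells of a kind and more RNA per cell cannot be told apart.

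**Figure D1:**
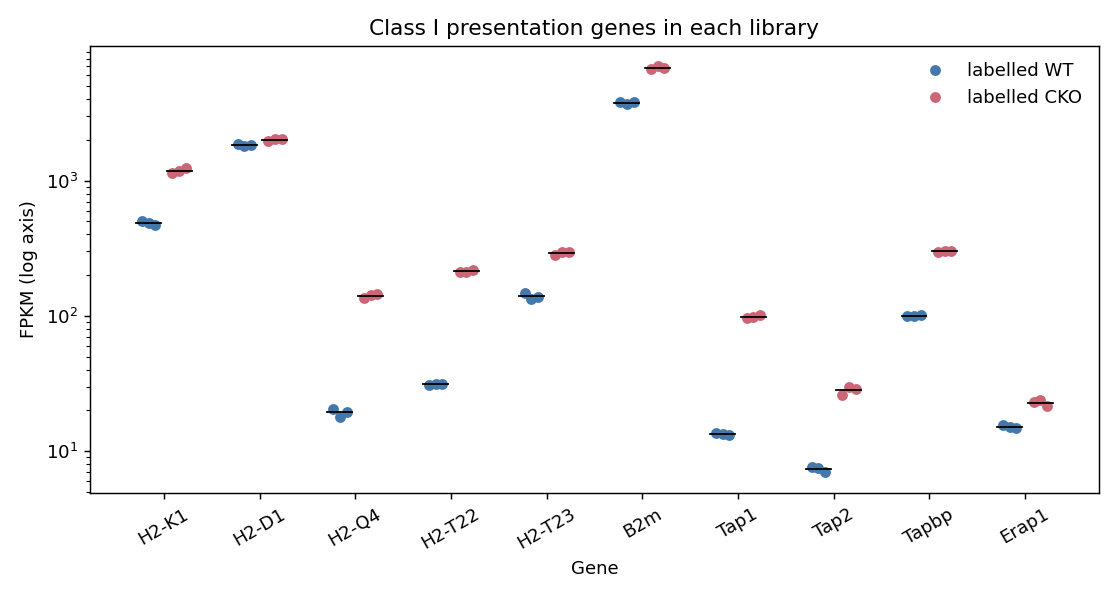
FPKM of the 10 class I presentation genes on a log axis, with 1 point for each of the 3 libraries labelled WT and the 3 labelled CKO and a bar at each group's mean. The groups are separated for every gene, by the least for H2-D1 (1815 to 1875 FPKM against 1949 to 2044 FPKM) and widely for H2-Q4, H2-T22 and Tap1.

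Among the classical heavy chains, H2-K1 (ENSMUSG00000061232, chromosome 17, 33996017 to 34000347, mm10, minus strand) read 505, 482 and 469 FPKM in the libraries labelled WT against 1145, 1186 and 1233 FPKM in those labelled CKO. Every library labelled CKO was thus more than double any labelled WT, and the means differed 2.45-fold (log2 fold change 1.29, SE 0.035, limma adjusted p = 2.41e-11). H2-D1 (ENSMUSG00000073411, chromosome 17, 35262730 to 35267499, plus strand) was the most abundant heavy chain in both groups and barely moved. It read 1875, 1815 and 1839 FPKM against 1949, 2044 and 2043 FPKM, so the lowest library labelled CKO lay just above the highest labelled WT. The means were 1843 ± 30.2 and 2012 ± 54.6 FPKM (SD, n = 3), a ratio of 1.09, or 0.13 on the log2 scale (SE 0.027, limma adjusted p = 0.00122). Median-of-ratios scaling gave 0.31 and quantile normalization -0.10, so the direction of H2-D1 rests on the scaling.

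The non-classical heavy chains started lower and 2 of the 3 rose by more than H2-K1. H2-Q4 (ENSMUSG00000035929, chromosome 17, 35379617 to 35385290, plus strand), a gene of the Qa region, read 20.5, 18.0 and 19.4 FPKM in the libraries labelled WT against 136, 143 and 144 FPKM in those labelled CKO. Its means differed 7.32-fold (log2 fold change 2.81, SE 0.046, limma adjusted p = 3.77e-13), close to the 7.41-fold difference of Tap1. H2-T22 (ENSMUSG00000056116, chromosome 17, 36037128 to 36042747, minus strand) encodes a heavy chain that certain gamma delta T cells recognise without a peptide. It read 30.9, 31.3 and 31.2 FPKM against 210, 211 and 219 FPKM, the tightest group labelled WT among the heavy chains. The means differed 6.85-fold (log2 fold change 2.74, SE 0.030, limma adjusted p = 1.74e-14). H2-T23 (ENSMUSG00000067212, chromosome 17, 36029773 to 36032855, minus strand) encodes Qa-1, which presents leader peptides of other class I chains to receptors on NK and T cells. It read 146, 134 and 139 FPKM against 281, 295 and 295 FPKM. That is a 2.08-fold difference of the means (log2 fold change 1.05, SE 0.036, limma adjusted p = 1.81e-10), although the genes H2-T23 and H2-T22 lie close together.

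B2m (ENSMUSG00000060802, chromosome 2, 122147686 to 122153083, plus strand), the light chain shared by these heavy chains, had the highest FPKM of the 10 genes. It read 3816, 3692 and 3828 FPKM in the libraries labelled WT against 6731, 7019 and 6830 FPKM in those labelled CKO. The gap between the groups was many times the spread inside either, a 1.82-fold difference of the means (log2 fold change 0.86, SE 0.026, limma adjusted p = 6.53e-11).

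The peptide transporter genes rose unequally. Tap1 (ENSMUSG00000037321, chromosome 17, 34187553 to 34197225, plus strand) read 13.6, 13.3 and 13.1 FPKM in the libraries labelled WT against 96.8, 98.4 and 101 FPKM in those labelled CKO. The means differed 7.41-fold, the largest ratio among the 10 (log2 fold change 2.80, SE 0.033, limma adjusted p = 3.35e-14). Tap2 (ENSMUSG00000024339, chromosome 17, 34203527 to 34216321, plus strand), whose protein pairs with that of Tap1, read 7.60, 7.43 and 6.95 FPKM against 25.9, 29.7 and 28.9 FPKM. It was the lowest of the 10 in the libraries labelled WT, with 438 reads in its shallowest library, and its means differed 3.84-fold (log2 fold change 1.81, SE 0.055, limma adjusted p = 7.08e-11).

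Of the loading and trimming factors, Tapbp (ENSMUSG00000024308, chromosome 17, 33915899 to 33929292, plus strand) read 99.1, 100.1 and 101.7 FPKM in the libraries labelled WT against 297, 301 and 302 FPKM in those labelled CKO. Its libraries agreed closely within each group, and the means differed 2.99-fold (log2 fold change 1.57, SE 0.026, limma adjusted p = 4.12e-13). Erap1 (ENSMUSG00000021583, chromosome 13, 74639568 to 74693201, plus strand) rose the least after H2-D1. It read 15.5, 15.1 and 14.8 FPKM against 22.9, 23.7 and 21.6 FPKM, a 1.5-fold difference of the means (log2 fold change 0.56, SE 0.043, limma adjusted p = 2.72e-07).

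**Figure D2:**
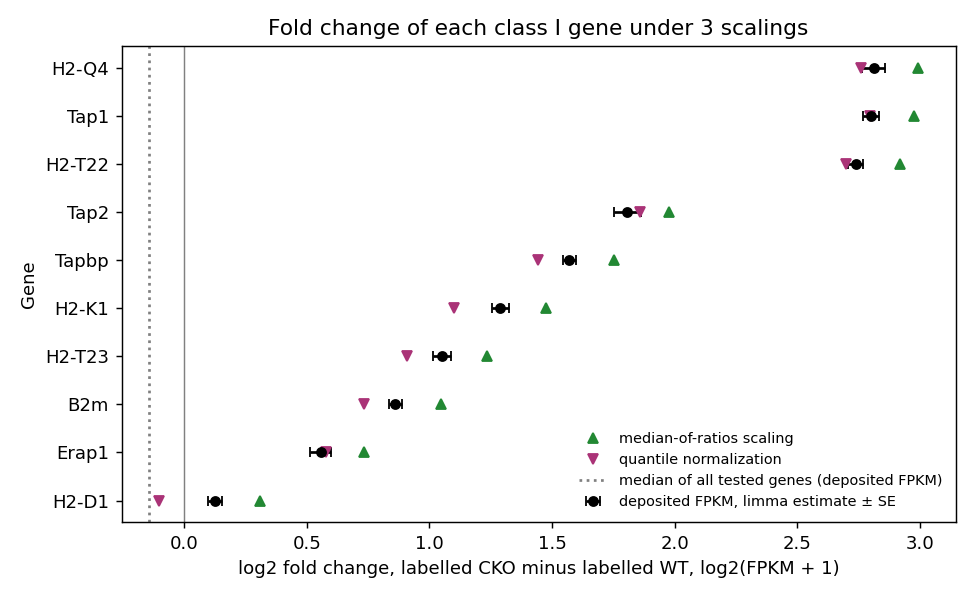
Log2 fold change of each gene, labelled CKO minus labelled WT on the log2(FPKM + 1) scale, with bars of 1 SE (n = 3 libraries per group) for deposited FPKM and triangles for median-of-ratios scaling and quantile normalization; the dotted line is the median of all tested genes, -0.14. Values as deposited run from 0.13 for H2-D1 to 2.81 for H2-Q4, and only H2-D1 crosses 0, at -0.10 after quantile normalization.

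Set against the promoter stretches shown above, genes are grouped here by matches to the strict letters searched, without near matches. Log2 fold changes of the 3 genes matching the kappa B-like motif ran from 0.13 for H2-D1 to 2.81 for H2-Q4. Those of the 4 matching the response element ran from 0.56 for Erap1 to 2.74 for H2-T22. Tap1 and Tapbp, whose searched promoters matched neither, stood at 2.80 and 1.57. The ranges of the sets overlap, and H2-K1 and H2-D1, nearly alike in that stretch, stood at 1.29 and 0.13 (-0.10 for H2-D1 after quantile normalization).

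FPKM is scaled by the listed gene length, such as 2938 bases for H2-K1, 2579 for H2-D1 and 860 for B2m. The 10 genes can thus be set in order of FPKM. Transcript lengths in these cells were not tested, so this need not be the order by number of transcripts. In the libraries labelled WT the order from the top was B2m, H2-D1, H2-K1, H2-T23, Tapbp, H2-T22, H2-Q4, Erap1, Tap1 and Tap2. In those labelled CKO it was B2m, H2-D1, H2-K1, Tapbp, H2-T23, H2-T22, H2-Q4, Tap1, Tap2 and Erap1. Tapbp thus passed H2-T23, and both transporter genes passed Erap1. No neighbours in either order had overlapping ranges over the 3 libraries, and the closest relative to their level were Tapbp (lowest 296.9 FPKM) and H2-T23 (highest 295.1 FPKM) in the libraries labelled CKO. The spread within a group was small throughout, with a coefficient of variation of 0.613% to 6.61% in the libraries labelled WT and 0.868% to 7.19% in those labelled CKO.

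The make-up of the class I heavy chain mRNA differed between the groups, with a smaller share of H2-D1 and a larger share of the other 4 heavy chains in every library labelled CKO. Summed over the 5, FPKM was 2519 ± 52.1 in the libraries labelled WT and 3845 ± 110 in those labelled CKO (SD, n = 3). H2-D1 gave 73.2% ± 0.454 of that sum in the libraries labelled WT and 52.3% ± 0.373 in those labelled CKO. H2-K1 went from 19.3% ± 0.428 to 30.9% ± 0.396 of the sum. H2-T23 went from 5.54% ± 0.138 to 7.56% ± 0.0546, H2-T22 from 1.24% ± 0.0328 to 5.55% ± 0.102, and H2-Q4 from 0.766% ± 0.0366 to 3.67% ± 0.0217. In deposited FPKM the means differed by 702 for H2-K1, 182 for H2-T22, 151 for H2-T23 and 122 for H2-Q4. For H2-D1 they differed by 169 FPKM as deposited, a difference whose sign turned after quantile normalization (-0.10 on the log2 scale).

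**Figure D3:**
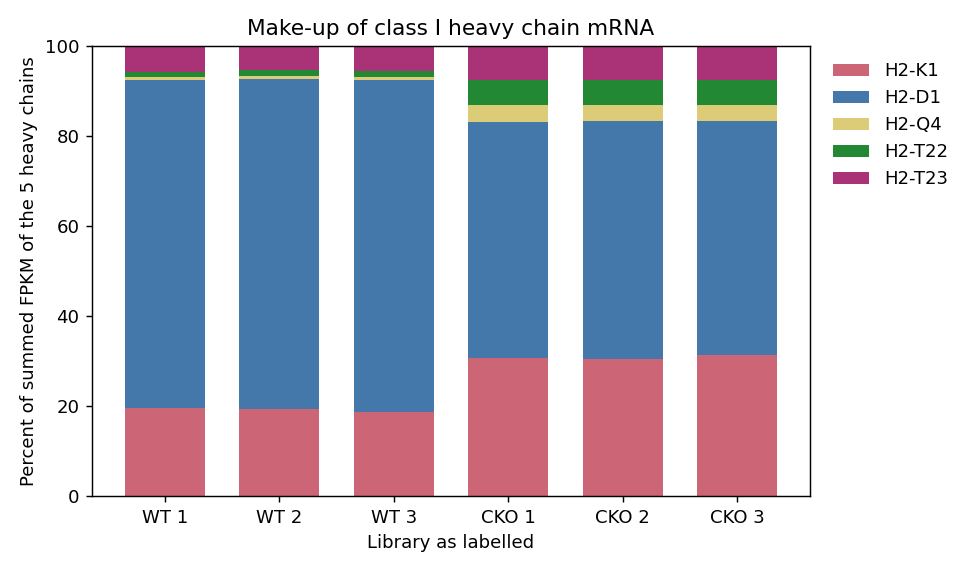
Percent of the summed FPKM of the 5 heavy chains given by each of them, as stacked bars for the 6 libraries as labelled. H2-D1 holds 72.7% to 73.6% in the 3 libraries labelled WT and 51.9% to 52.7% in the 3 labelled CKO, and the H2-K1, H2-T22 and H2-Q4 segments are wider in all of the latter.

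Ratios within a library, which do not depend on how a whole library is scaled, showed how unequal the differences were. All 7 ratios examined were separated between the groups, each with an exact two-sided permutation p of 0.1 (also 0.1 after Benjamini-Hochberg adjustment over the 7), the smallest that 3 against 3 libraries can give. H2-K1 over H2-D1 was 0.263 ± 0.00739 in the libraries labelled WT and 0.590 ± 0.0117 in those labelled CKO. The sum of the 5 heavy chains over B2m was 0.667 ± 0.0125 against 0.560 ± 0.0133, so B2m had the higher FPKM in both groups. H2-K1 plus H2-D1 as a part of the 5 heavy chains was 0.925 ± 0.00145 against 0.832 ± 0.000769. Tap1 over Tap2 went from 1.82 ± 0.0552 to 3.52 ± 0.217, and Tap1 over Tapbp from 0.133 ± 0.00402 to 0.329 ± 0.00420. Erap1 over Tap1 went from 1.14 ± 0.00584 to 0.231 ± 0.0144, the widest move of the 7, at -2.30 on the log2 scale.

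The peptide supply list holds proteasome subunits, proteasome activators and cytosolic peptidases. Of its 14 tested genes 10 rose, 1 fell and 3 were not called, beside 30.5% higher and 50.5% lower over all tested genes. The median log2 fold change was 0.62, beside -0.14 over all tested genes. After median-of-ratios scaling none of the 14 fell. The immunoproteasome subunits Psmb8, Psmb9 and Psmb10, which replace constitutive subunits under interferon, all rose. Psmb8 read 7.11, 6.36 and 5.95 FPKM against 18.0, 18.9 and 18.2 FPKM (log2 fold change 1.38). Psmb9 read 10.1, 8.69 and 9.10 FPKM against 27.7, 29.4 and 32.0 FPKM (1.58), and Psmb10 read 50.5, 46.7 and 44.7 FPKM against 121, 120 and 130 FPKM (1.37), each with a limma adjusted p of at most 1.03e-09. Their sum over that of the constitutive subunits Psmb5, Psmb6 and Psmb7 went from 0.517 ± 0.0242 to 0.916 ± 0.00910, although those 3 rose as well, by 0.96, 0.43 and 0.82 on the log2 scale. Psme2, a subunit of the PA28 proteasome activator, had the smallest p of the list, at 40.2 ± 1.90 FPKM against 143 ± 6.50 FPKM (log2 fold change 1.80, limma adjusted p = 8.22e-12).

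Of the other class I and class I-like heavy chains 15 of 17 on the list were in the tables, 2 were at 0 in every library, and 9 were tested. Of these 6 rose and 3 fell, beside 30.5% higher and 50.5% lower over all tested genes. The median log2 fold change was 1.84. H2-Q6, like H2-Q4 a gene of the Qa region, read 4.09, 2.33 and 3.08 FPKM in the libraries labelled WT against 173, 184 and 181 FPKM in those labelled CKO (log2 fold change 5.46, limma adjusted p = 2.90e-12). In the libraries labelled CKO it stood above H2-Q4, and in those labelled WT below it. Cd1d1, which presents lipids to NKT cells, read 2.84 ± 0.200 against 21.9 ± 0.956 FPKM (log2 fold change 2.58), and H2-T24 read 26.3 ± 1.37 against 96.9 ± 1.03 FPKM (1.84). H2-Q7 and H2-M2, picked for mention after their values were seen, were also higher. H2-Q7 lay between 1.76 and 2.70 FPKM in the libraries labelled WT and between 59.3 and 72.0 FPKM in those labelled CKO. H2-M2 lay between 0.210 and 0.697 FPKM and between 31.5 and 36.0 FPKM, respectively. The 3 that fell, also named after their values were seen, were Fcgrt, the neonatal Fc receptor (-2.16), Hfe, a regulator of iron uptake (-1.29), and Mr1, which presents vitamin B metabolites (-0.36). These 3 have a class I fold but do not present peptides, a trait they share with Cd1d1, which rose.

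Chaperones and editors of the endoplasmic reticulum moved less. Of 10 tested genes 6 rose, 2 fell and 2 were not called, beside 30.5% higher and 50.5% lower over all tested genes. The median log2 fold change was 0.28. Tapbpl, which encodes the tapasin-related editor TAPBPR, read 10.7, 9.45 and 9.54 FPKM against 35.0, 39.8 and 39.2 FPKM (log2 fold change 1.84, SE 0.058, limma adjusted p = 8.99e-11). P4hb, a disulfide isomerase, went from 210 ± 3.47 to 390 ± 2.23 FPKM (0.89), and Calr, the chaperone calreticulin of the loading complex, from 289 ± 7.57 to 399 ± 5.62 FPKM (0.46).

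The regulator list holds 13 transcription factors of class I genes, all tested, of which 7 rose, 4 fell and 2 were not called. Over all tested genes 30.5% were higher and 50.5% lower. The median log2 fold change of the 13 was 0.20. After median-of-ratios scaling 1 of the 13 fell, and after quantile normalization 2. Irf1, which binds interferon-stimulated response elements, read 14.5, 12.0 and 12.5 FPKM in the libraries labelled WT against 50.2, 50.5 and 55.6 FPKM in those labelled CKO (log2 fold change 1.93, SE 0.064, limma adjusted p = 1.31e-10). Nlrc5, the class I transactivator, read 12.3, 9.98 and 11.8 FPKM against 31.7, 29.2 and 29.0 FPKM (1.33, SE 0.068, limma adjusted p = 6.30e-09).

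The NF-kB subunits, which bind kappa B motifs, rose by 0.70 (Rela) and 0.23 (Nfkb1) on the log2 scale, and Irf2, an antagonist or partner of Irf1, by 0.38. Subunits of the RFX and NF-Y complexes, through which NLRC5 reaches class I promoters, had fold changes near 0 or below it in deposited FPKM. Rfx5 rose from 1.98 ± 0.0943 to 2.41 ± 0.132 FPKM (0.20, limma adjusted p = 0.0102). Rfxank, at 1.65 ± 0.312 and 1.79 ± 0.122 FPKM, was not called (limma adjusted p = 0.395). It was called higher after median-of-ratios scaling (0.20) and quantile normalization (0.24). Rfxap, at 7.96 ± 0.440 and 7.19 ± 0.381 FPKM, was called lower at -0.13 (limma adjusted p = 0.0472). That call was lost without WT replicate 2 (limma adjusted p = 0.120), WT replicate 3 (0.148), CKO replicate 2 (0.133) or CKO replicate 3 (0.132). It was also lost with the replicate block (limma adjusted p = 0.0743), without a filter (0.0744), with limma voom (0.113) and after quantile normalization (0.788), and the fold change turned to 0.03 after median-of-ratios scaling. Nfya fell from 20.2 ± 0.270 to 13.7 ± 0.114 FPKM (-0.53), Nfyc was called lower at -0.18 and Nfyb was not called at 0.09. Nfyb too was called higher after median-of-ratios scaling (0.23) and quantile normalization (0.26). Creb1, which can join these factors, was called lower at -0.27. The calls of Nfyc and Creb1 were lost after median-of-ratios scaling, at -0.01 and -0.12.

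Of the 7 interferon receptor subunits and kinases tested, 5 rose, 1 fell and 1 was not called, with a median log2 fold change of 0.48. Over all tested genes 30.5% were higher and 50.5% lower. Jak2, a kinase of the interferon gamma receptor, read 10.2, 10.4 and 10.6 FPKM against 105, 99.5 and 97.3 FPKM (log2 fold change 3.16, limma adjusted p = 4.13e-14). Ifngr1, the ligand-binding subunit of that receptor, went the other way, at 46.0, 50.4 and 50.3 FPKM against 21.8, 22.5 and 21.5 FPKM (-1.12, limma adjusted p = 4.23e-10). Ifnar1, a subunit of the type I interferon receptor, rose from 23.9 ± 0.537 to 43.3 ± 1.09 FPKM (0.83).

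**Figure D4:**
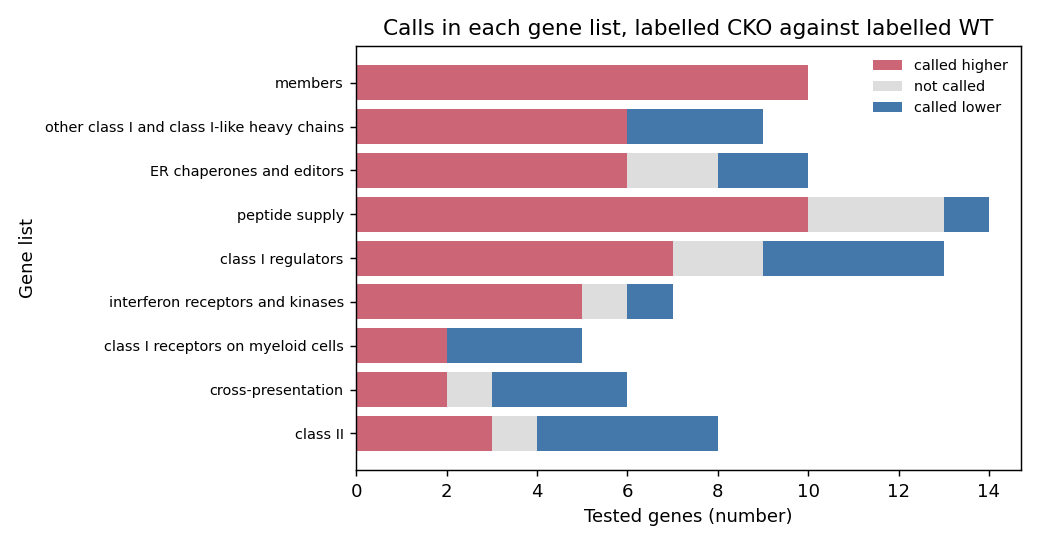
Number of tested genes in each list that were called higher, not called or called lower (limma adjusted p under 0.05) in the libraries labelled CKO, with the 10 class I presentation genes in the top bar. The 10 are all called higher (H2-D1 was called lower after quantile normalization), while of 8 class II genes 3 are higher and 4 lower, near the shares over all tested genes (30.5% and 50.5%).

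Over the 7 lists of other class I pathway genes together, 38 of 64 tested genes rose, 17 fell and 9 were not called. Over all tested genes 30.5% were higher and 50.5% lower. The median log2 fold change of the 64 was 0.30. Median-of-ratios scaling gave 44 higher and 13 lower. Of 5 tested receptors for class I on myeloid cells 2 were higher and 3 lower, near the shares over all tested genes (30.5% and 50.5%). Klra2, a Ly49 family receptor gene, read 1.06, 0.851 and 0.917 FPKM against 23.4, 21.8 and 21.1 FPKM (log2 fold change 3.57). Pira2, an activating paired receptor, fell from 11.6 ± 0.431 to 4.10 ± 0.151 FPKM (-1.30), and Klra17, another Ly49 family gene, fell from 2.19, 2.29 and 1.76 FPKM to 0, 0.109 and 0.0942 FPKM. Of 6 tested cross-presentation genes 2 rose, 3 fell and 1 was not called, also near those shares. Cybb, the catalytic subunit of the phagocyte oxidase, rose from 244 ± 2.93 to 739 ± 11.4 FPKM (1.6). Wdfy4, required for cross-presentation in dendritic cells, fell from 18.6 ± 0.200 to 10.7 ± 0.610 FPKM (-0.74), and Rab43 fell from 2.14 ± 0.112 to 1.12 ± 0.0190 FPKM (-0.56).

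Class II genes, which present extracellular antigen to helper T cells, were close to the background in the same libraries. Of 11 on the list 8 were tested, 3 rose, 4 fell and 1 was not called, beside 30.5% higher and 50.5% lower over all tested genes. Their median log2 fold change was -0.03, and after median-of-ratios scaling 2 fell. H2-Ab1 rose from 37.6 ± 1.04 to 62.1 ± 1.2 FPKM (0.71). Ciita, the class II transactivator and a relative of Nlrc5, fell from 3.60 ± 0.351 to 1.91 ± 0.0922 FPKM (-0.66, limma adjusted p = 3.29e-06). Ctss, the protease that frees the class II groove, fell from 3932 ± 17.3 to 2579 ± 43.3 FPKM (-0.61).

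Of the 10 genes 8 lie on chromosome 17, B2m lies on chromosome 2 and Erap1 on chromosome 13. Between H2-K1 and H2-T22, a stretch of 2046.7 kb (chromosome 17, 33996017 to 36042747, mm10), 74 of 120 genes in the tables were tested, 7 of them class I presentation genes. Of the other 67, 33 rose (49.3%) and 27 fell (40.3%), with a median log2 fold change of 0.11, beside 30.5%, 50.5% and -0.14 over all tested genes. These 67 include H2-Q6, H2-Q7, H2-T24, Psmb8 and Psmb9 from the class I pathway lists above, all of which rose. Genes that rose and genes that fell stood side by side along the stretch, and H2-D1, with its small change, lay between H2-K1 and H2-Q4.

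**Figure D5:**
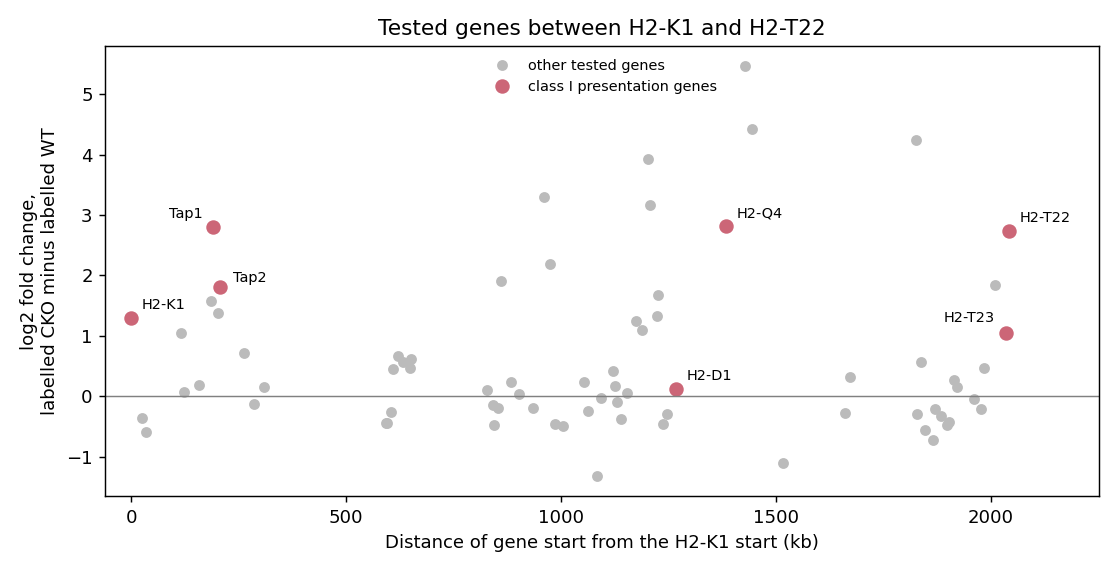
Log2 fold change, labelled CKO minus labelled WT, of the 74 tested genes between H2-K1 and H2-T22 on chromosome 17, against the distance of each gene's start from that of H2-K1 in kb. The 7 class I presentation genes there run from 0.13 (H2-D1, which was -0.10 after quantile normalization) to 2.81 (H2-Q4), among 67 other genes with a median of 0.11. The 67 include class I pathway genes of the other lists, such as H2-Q6 and Psmb9.

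Class I heavy chains resemble each other, and reads that fit several genes can be split between them, so their values are less certain than those of B2m. Of all stretches of 100 bases in the protein-coding transcripts of a gene (GENCODE M21), the percentage also found in a transcript of another gene was 0 for H2-K1 and B2m, 4.09 for H2-D1, 7.28 for H2-T23, 12.4 for H2-T22 and 13.9 for H2-Q4. With stretches of 50 bases it was 6.87, 0, 13.9, 29.8, 43.9 and 39.2, in the same order. The largest sharer with H2-T22 was H2-T10, which is not analysed here. For Tapbp 12.7% and for Erap1 12.8% of the 100-base stretches were shared, the latter with the overlapping gene Cast. Some of the 10 genes overlap with other genes. Tap1 shares 212 bases with Psmb9 on the opposite strand, and both rose. Erap1 shares 834 bases with Cast on the opposite strand, which read 14.7 to 15.2 FPKM in the libraries labelled WT against 9.80 to 10.3 FPKM in those labelled CKO. Tapbp shares 3422 bases with Zbtb22 on the same strand, which read 13.7 to 16.1 FPKM against 11.2 to 11.5 FPKM. B2m shares 5398 bases with Patl2 on the opposite strand, which stayed at or below 0.602 FPKM. Whether the counting used strand is not given in the sources used here.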

How the data were processed

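For every library the authors deposited a table of FPKM values, per the file headers, meaning reads scaled by listed gene length and by the reads assigned to all listed genes. These FPKM values, recorded under the unit other because of stray line ends, were used as deposited. The submitters' processing notes list, without role or order, build mm10 and the tools DESeq2 1.22.1, featureCounts 1.6.2, GATK 4.0.11.0, Cufflinks, StringTie 1.3.4d, HISAT2 2.1.0 and fastp 0.19.3. FPKM times gene length came out as whole multiples of a step per library within 0.01 reads, so reads could be recovered for depth and for an alternative test. Depth was 15422154 to 18418903 reads per library, and a floor of 3 reads covers counting error only. Pairs of libraries within a group differed by more than counting noise, with a chi-square per degree of freedom of 2.16 to 3.18 over genes with at least 20 reads in the pair.

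The test was limma 3.58.1 under R 4.3.3 (lmFit, eBayes with trend) on log2(FPKM + 1), group being the only term, for genes that reached an FPKM of 1 in 3 or more libraries. Its fold changes are labelled CKO minus labelled WT and, through the pseudocount of 1, are too small for low genes. Benjamini-Hochberg adjustment ran over all tested genes, with calls under 0.05. The fit was tested on simulated data in which few genes changed, so that test cannot speak to how scaling affects these data. Ratios were compared by exact permutation in scipy 1.17.1 with pandas 2.3.3, numpy 2.4.6 and Python 3.11.15.

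The genes, lists and tests were chosen with earlier results of these data known. Named were the 10 genes, Alkbh5, Apoe and Lyz2, every regulator but 1 that is not reported here, Psmb8, Psmb9 and Psmb10, up to 3 tested genes with the smallest p of each other list, and the 5 other genes whose profile was most like that of the 10. Further macrophage markers were named to show both directions. H2-T10, Cd1d2, Nrdc, Ifi30 and Trac were not analysed here. Sequences are RefSeq's (GRCm38.p6). The comparison of transcript stretches was chosen after the files were seen, and a planned comparison of protein sequences was not run. Alternatives tried were pseudocounts of 0.1 and 0.5, testing without a filter or from a mean FPKM of 5 up, quantile normalization, median-of-ratios scaling, limma with array weights or no trend, limma voom on the recovered reads, leaving out each library, and a block for the replicate number.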

Additional observations from a re-analysis of the deposited data

How the results depend on the processing

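The 10 class I presentation genes were called higher under every alternative run except quantile normalization, where 9 were called higher and 1 lower. That gene was H2-D1, at -0.10 (limma adjusted p = 2.21e-05), and the cause was not tested. Quantile normalization also moved 4 ratios on the log2 scale, the 5 heavy chains over B2m to -0.32, H2-K1 plus H2-D1 over the 5 heavy chains to -0.17, H2-K1 over H2-D1 to 1.20 and Tap1 over Tapbp to 1.44, each in its earlier direction. A mean FPKM of at least 5, which tests fewer genes, gave 3185 genes called lower over all genes in place of 5031. Among single regulators, Rfxap turned to 0.0332 after median-of-ratios scaling, and Rfxank, not called, ranged from -0.0025 (without WT replicate 2) to 0.1671 with 1 library left out. With 1 library left out the log2 fold change of H2-D1 ranged from 0.11 to 0.15 and that of H2-Q4 from 2.76 to 2.85, and the genes called higher over all genes from 2910 to 2961. With a replicate block, 10 of the 10 genes were higher and over all genes 3018 were higher and 5023 lower. Deviations of same-numbered libraries from their group means correlated at 0.019, 0.012 and -0.039, and not every library correlated best with its own number. The labels do not say whether same-numbered libraries share more than the number. These correlations cannot decide it, since each deviation was taken from a mean of only 3 libraries. The highest adjusted p of H2-D1 over the alternatives was 0.0226. Of the other values for named genes and lists, 781 stayed alike (a gene with the same direction and call, or a list count within 1.5 times), 11 lost a call (Rfxap, Nfyc and Creb1), 4 gained one (Rfxank and Nfyb) and 11 list counts moved. Each of the 10 genes had at least 438 reads in every library, while H2-M2 had as few as 6 reads in a library.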

Other observations

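Apart from the 10 class I presentation genes themselves, 5 genes had the profiles most like theirs, by Pearson's r over the 6 libraries with the mean of the 10 genes' standardized log2(FPKM + 1). They were Tapbpl, Ccdc173, Ddx24, H2-Q7 and Vdac3, of which Tapbpl and H2-Q7 also stand in the lists above. Ddx24, an RNA helicase gene, read 12.2, 11.9 and 11.7 FPKM (labelled WT) against 23.4, 24.4 and 24.2 FPKM (labelled CKO). Vdac3, a channel gene of the outer mitochondrial membrane, read 14.0, 13.6 and 13.4 FPKM against 25.7, 27.6 and 27.5 FPKM. Ccdc173 read 0.552, 0.436 and 0.493 FPKM against 2.26, 2.56 and 2.53 FPKM. Since the libraries form 2 tight groups, such likeness is common, and 1149 of 9943 other tested genes reached an r of at least 0.99.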
